A study of Homo sapiens with 4 samples.

Results

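The 8 subunit genes of the cytosolic chaperonin TRiC, also called CCT, were followed in the human breast cancer cell line MDA-MB-468 treated with MS1943. The subunits are TCP1, CCT2, CCT3, CCT4, CCT5, CCT6A, CCT7 and CCT8. They were taken by gene symbol from 56865 genes after transcripts had been assigned to genes with GENCODE release 29 and summed. All 8 passed the filter on low counts, among 19358 genes tested. The MS1943 group was given 5 µM MS1943 for 3 days (n = 2 libraries), and the control group was given the solvent DMSO (n = 2 libraries), for which the labels name no time. MS1943 is named in the study title as a degrader of EZH2, the histone methyltransferase of Polycomb repressive complex 2, and the comparison addresses which transcripts change under it. All 4 libraries came from the line at passage 12, labelled as triple negative, and were made from poly(A)-selected RNA. The labels spell the line MDA-MD-468 and the design text MDA-MB-468. Cells were seeded in duplicate dishes, and nothing states that the duplicates were independent cultures. The sample titles carry 3 letters for each MS1943 library and 1 letter for each DMSO library; whether these mark pooled dishes is not stated, and pooling in 1 group alone would make the spreads of the groups unlike. Replicate numbers follow accession order and only name the libraries. The p-values therefore reflect only how far these libraries lie apart, and that spread may be technical.

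TRiC is a stacked double ring in which each ring holds every subunit at a fixed position. It binds unfinished proteins in its cavity and closes over them by hydrolysing ATP, and its best known clients are actin, the tubulins and proteins with WD40 repeats. Work in yeast sets a side of the ring that binds ATP strongly, formed by the subunits TCP1, CCT2, CCT4 and CCT5, apart from a side that binds it weakly, formed by CCT3, CCT6A, CCT7 and CCT8. Prefoldin hands unfolded actin and tubulin to the ring, and phosducin-like proteins act on it as cofactors. In mammalian cells the subunit genes are known targets of the heat shock factor HSF1.

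The libraries held 69878745 and 47564377 estimated reads in the MS1943 group and 64720699 and 71378893 in the DMSO group. Genes encoded on the mitochondrial genome took 3.52% and 3.11% of the reads of the MS1943 libraries and 1.65% and 1.78% of those of the DMSO libraries. With trimmed mean of M-values (TMM) scaling and edgeR's quasi-likelihood test, 59.3% of the tested genes passed an adjusted p of 0.05, 30.0% higher and 29.4% lower in MS1943. With scaling by total reads alone, 23.9% were higher and 36.0% were lower, and the median log2 fold change over all tested genes moved to -0.12, against -0.01 with TMM. This shift is about as large as the changes of some TRiC genes, so the total-read values of the subunits are given beside those with TMM. The epithelial markers EPCAM, KRT8, KRT18 and KRT19 were present in all libraries. The leukocyte-defining markers PTPRC and CD3E had between 0 and 10 reads in every library, and the fibroblast markers COL1A2, COL3A1, DCN and LUM had between 0 and 14. Of 5 leukocyte markers, 2 passed the filter on low counts (CD14 and LST1), and both were lower. Of 6 fibroblast markers, 2 passed the filter (COL1A1 and PDGFRB), and both were higher. All 4 endothelial markers were tested and were lower. The summed TPM of all listed markers under MS1943 was 96.4 and 103 (leukocyte), 18.0 and 15.3 (fibroblast) and 0.880 and 0.726 (endothelial). Under DMSO it was 188 and 190.3, 12.7 and 10.7, and 2.31 and 2.11 in the same order. Of 7 epithelial markers, KRT5 and EGFR were higher, CDH1, KRT8 and KRT19 lower, and EPCAM and KRT18 did not pass. The part of these markers in the results on TRiC was not tested. In bulk RNA, fewer cells of a type and less RNA per cell cannot be told apart.

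Promoter sequences from RefSeq (GRCh38.p14, 250 bases before to 50 after a start site) were matched for 7 of the 8 genes, in 9 windows. They were searched on both strands for GAANNTTC or TTCNNGAA, the core of a heat shock element, for TGATGNAA, an ATF4 site, for TGACNNNGC, the core of an antioxidant response element, for CCAAT, which NF-Y binds, and for CCGGAAG, which ETS factors bind. The heat shock core stood in the windows of 3 genes, TCP1, CCT2 and CCT4, and in 13.5% of all 35116 windows. The stretches of 30 bases around it are shown, 5′ to 3′ on the strand of the gene, because TRiC genes are known heat shock factor targets. Capitals mark the motif.
TCP1: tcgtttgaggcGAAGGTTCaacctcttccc
CCT2: cccggagcgaaGAAATTTCtagtgtgggac
CCT4: cccgacgccggcgccgctTTCTGGAAggtt
The TCP1 stretch lies at chr6:159789815-159789844 on the minus strand, with the motif at -231 relative to the start site, in a non-coding exon of the neighbouring gene MRPL18. The CCT2 stretch lies at chr12:69585789-69585818 on the plus strand, with the motif at -89 relative to the second of the listed start sites, in a non-coding exon of CCT2. The CCT4 stretch lies at chr2:61888607-61888636 on the minus strand, in a non-coding exon of CCT4, with the motif at 38 relative to the start site. A match is a description of the letters and not evidence of binding.

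CCAAT or its reverse ATTGG stood in the windows of 4 genes, CCT3, TCP1, CCT2 and CCT8, and in 34.6% of all windows. It was the motif found in most of the genes, and a stretch with 1 match is shown for each, with the motif in capitals; CCT3 holds another match nearer its start site.
CCT3: actaaggctgtcaATTGGtctgtttttgtg
TCP1: catcggctatctaATTGGacaaaaatgccg
CCT2: ggcccgtggggctCCAATcaaaatgggacg
CCT8: aaagggtgggctaATTGGagagccaggaag
These stretches lie at chr1:156338351-156338380 (minus strand, CCT3), chr6:159789740-159789769 (minus strand, TCP1), chr12:69585355-69585384 (plus strand, CCT2) and chr21:29073695-29073724 (minus strand, CCT8). All 4 stretches overlap a non-coding exon of the gene itself. For TCP1 the motif lies before the annotated 5′ end of the gene, at chr6:159789749, and only the last bases of the stretch overlap the exon. TGACNNNGC was found in 1 gene, CCT4, and in 13.3% of all windows. CCGGAAG was found in 1 gene, CCT2, and in 10.3% of all windows. TGATGNAA was found in 0 of the 7 genes and in 3.62% of all windows. The windows of CCT5 and CCT7 held none of the motifs searched, which says only that these letters are not in these windows.

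MS1943 moved the 8 subunits little and not evenly. TCP1, CCT3, CCT4, CCT5 and CCT8 rose, and CCT2, CCT6A and CCT7 did not pass the test in either direction. The 5 that rose did so by between 14.5% (CCT4) and 20.8% (TCP1), and 0 of the 8 reached a change of 1.5-fold. The count of 5 of 8 stands beside 30.0% of all tested genes called higher. Among the 781 genes at least as abundant as the lowest subunit, 74.5% passed the test and 41.0% were higher. The median log2 fold change of the 8 was 0.20, against -0.01 over all tested genes. The changes were small beside those of all tested genes, most of which were less abundant than any subunit. The median absolute log2 fold change over all tested genes was 0.41, and 35.9% of them moved by less than the subunit that moved most. These sizes were not computed for the 781 equally abundant genes. The per-library values of 6 subunits did not overlap between the groups, all with MS1943 above. Of all tested genes, 78.3% did not overlap and 38.4% had MS1943 above.

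**Figure D1:**
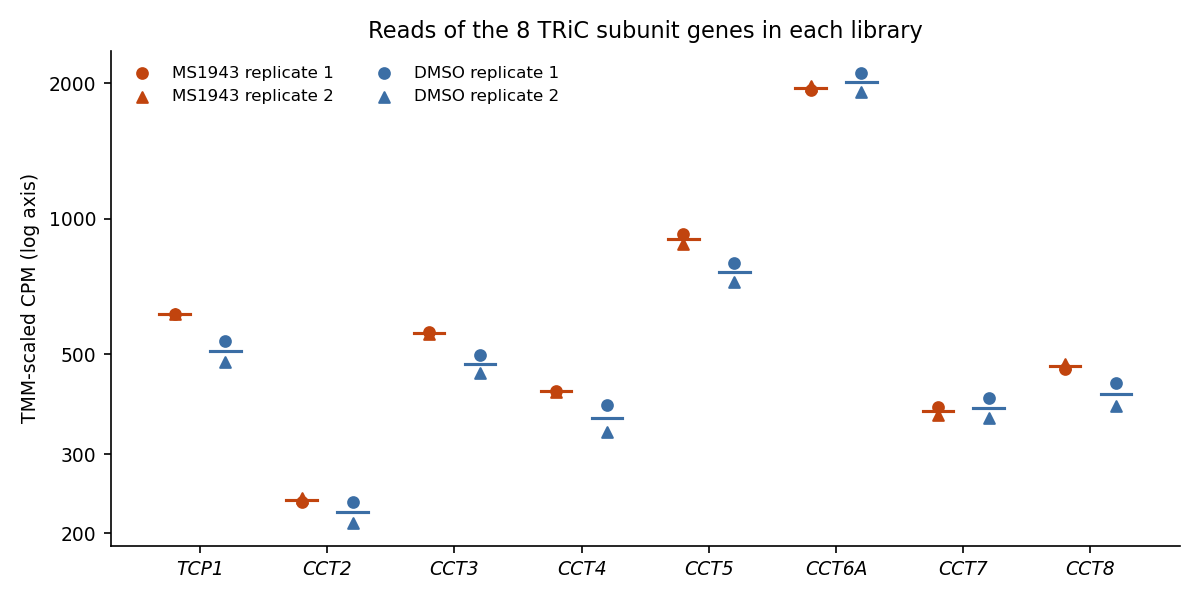
TMM-scaled CPM of the 8 subunit genes in each library on a log axis, with MS1943 left of DMSO, circles for replicate 1, triangles for replicate 2 and a line at each group mean. TCP1, CCT3, CCT4, CCT5 and CCT8 sit higher in both MS1943 libraries, while the groups of CCT6A and CCT7 overlap.

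On the side that binds ATP strongly, TCP1, the subunit that gave the complex its name, had 614 and 615 CPM (reads relative to the TMM-scaled library size) in the MS1943 libraries and 536 and 481 CPM in the DMSO libraries. Both MS1943 values lay above both DMSO values. Its log2 fold change was 0.27 ± 0.06 (SE; edgeR adjusted p = 0.000958), a fold of 1.21 with a 95% interval of 1.10 to 1.32; with total-read scaling it was 0.16 (adjusted p = 0.0125). CCT5, a subunit that can form rings by itself when produced alone, had 923 and 880 CPM under MS1943 and 798 and 724 CPM under DMSO. The groups did not overlap, and CCT5 rose by 18.5%, with a log2 fold change of 0.25 ± 0.06 (edgeR adjusted p = 0.00280), against 0.13 with total-read scaling (adjusted p = 0.0307). CCT4, the other subunit known to form rings by itself, had 415 and 411 CPM under MS1943 and 386 and 335 CPM under DMSO. It rose by 14.5%, with a log2 fold change of 0.20 ± 0.07 (edgeR adjusted p = 0.0147). The call for CCT4 was lost with total-read scaling, at a log2 fold change of 0.08 (adjusted p = 0.198), and without DMSO replicate 2, at 0.09 (adjusted p = 0.175), where 27.5% of all tested genes were higher. It was also lost without MS1943 replicate 1, at 0.18 (adjusted p = 0.0527). CCT2, mutated in an inherited retinal dystrophy, had 235 and 240 CPM under MS1943 and 235 and 211 CPM under DMSO. The lower MS1943 library and the higher DMSO library were almost level, and the log2 fold change of 0.09 ± 0.06 did not pass (edgeR adjusted p = 0.197), with a fold interval of 0.977 to 1.16. Without DMSO replicate 1, CCT2 was called higher at 0.17 (adjusted p = 0.00747), as were 27.8% of all tested genes, and with total-read scaling its value was -0.02.

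On the side that binds ATP weakly, CCT3, the gamma subunit, had 561 and 554 CPM in the MS1943 libraries and 498 and 454 CPM in the DMSO libraries. The groups did not overlap, and CCT3 rose by 17.1%, with a log2 fold change of 0.23 ± 0.06 (edgeR adjusted p = 0.00341), against 0.12 with total-read scaling (adjusted p = 0.0454). CCT8, the theta subunit, had 464 and 475 CPM under MS1943 and 431 and 383 CPM under DMSO. It rose by 15.4%, with a log2 fold change of 0.21 ± 0.06 (edgeR adjusted p = 0.00848), and this call was lost with total-read scaling at 0.10 (adjusted p = 0.125) and without DMSO replicate 2 at 0.12 (adjusted p = 0.0697). CCT6A, the zeta subunit and the most abundant by reads, had 1926 and 1967 CPM under MS1943 and 2103 and 1915 CPM under DMSO. The groups overlapped, and the log2 fold change was -0.05 ± 0.07 (edgeR adjusted p = 0.584), with a fold interval of 0.880 to 1.07. CCT7, the eta subunit, had 381 and 366 CPM under MS1943 and 400 and 360 CPM under DMSO. These also overlapped, with a log2 fold change of -0.02 ± 0.06 (edgeR adjusted p = 0.758) and a fold interval of 0.898 to 1.08. Both genes passed the test as lower with total-read scaling, CCT6A at -0.16 (adjusted p = 0.0131) and CCT7 at -0.14 (adjusted p = 0.0294), and both turned to small positive values, 0.02 and 0.05, without DMSO replicate 1.

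The calls varied with the scaling and with the test and unit. With total-read scaling 3 subunits were called higher (TCP1, CCT3 and CCT5) and 2 lower (CCT6A and CCT7). With limma on log2(TPM + 1), which changes the test and the unit as well as the scaling, and where 21.8% of all tested genes were higher and 33.4% lower, 1 subunit was called higher (TCP1) and 2 lower (CCT6A and CCT7). In both of these TCP1 had the highest log2 fold change and CCT6A and CCT7 the lowest, as with TMM. The gap between the highest and the lowest log2 fold change among the 8 was 0.32 with TMM and ranged from 0.30 to 0.39 over the alternatives. The count of 5 subunits called higher was 3 without DMSO replicate 2 and 6 without DMSO replicate 1.

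**Figure D2:**
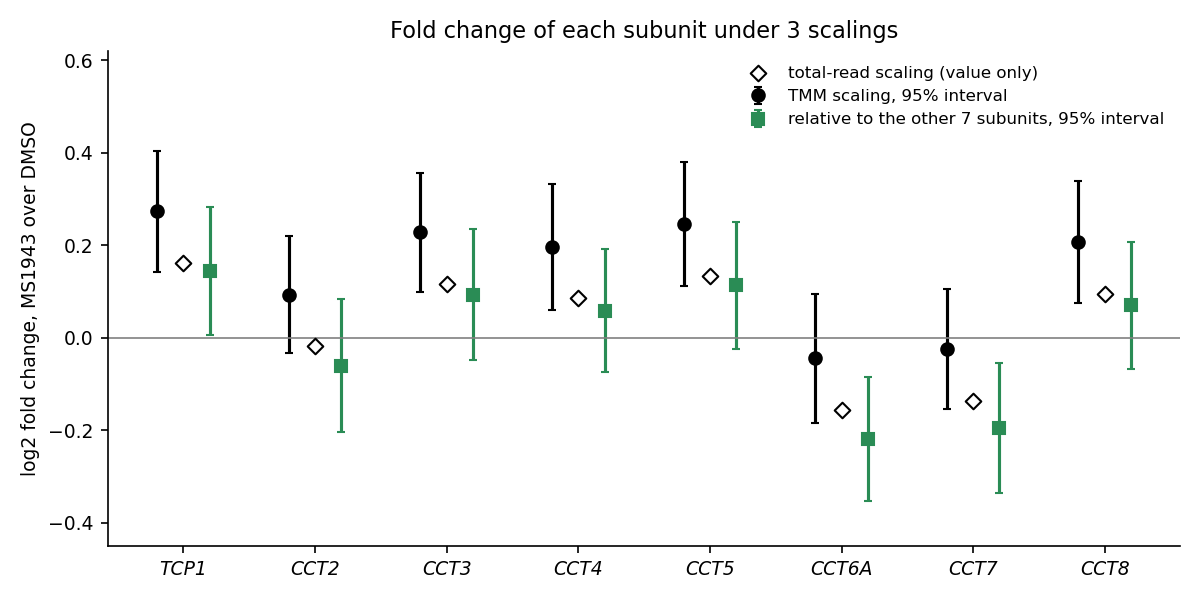
Log2 fold change of each subunit, MS1943 over DMSO, with TMM scaling (black circles with 95% intervals), with total-read scaling (white diamonds) and relative to the geometric mean of the other 7 subunits (green squares with 95% intervals). The intervals of CCT6A and CCT7 relative to the other 7 lie below 0 (-0.22 and -0.20), while total-read scaling shifts every subunit down together.

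The DMSO libraries themselves differed in these genes. DMSO replicate 1 was above DMSO replicate 2 in 8 of 8 subunits, by between 9.78% (CCT6A) and 15.2% (CCT4). On the log2 scale the difference between them was 0.13 to 0.20 with a median of 0.15. Over the 781 genes of at least the same abundance, the median difference between the same libraries was 0.07, and the range from the 5th to the 95th percentile was -0.09 to 0.16. The lower quartile of these genes was 0.02, so most of them were also higher in DMSO replicate 1. MS1943 replicate 1 was above MS1943 replicate 2 in 4 of 8, with log2 differences of -0.03 to 0.07. The 8 subunits thus stood apart together between the control replicates, with a median difference of 0.15 beside their median log2 fold change of 0.20 under MS1943, and the part of this in the treatment difference was not tested.

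The balance of the subunits was compared by scaling each library to the geometric mean of the other 7 subunits, which removes the library scaling and any change the subunits share. CCT6A was lower relative to the other 7 at a log2 value of -0.22 ± 0.07 (SE; edgeR adjusted p = 0.00320). CCT7 was lower relative to the other 7 at -0.20 ± 0.07 (edgeR adjusted p = 0.0157). In these fits 37.8% and 37.2% of all tested genes were lower relative to the same subunits. TCP1 stood at 0.14 ± 0.07 (edgeR adjusted p = 0.0695) and did not pass, and CCT5, CCT3, CCT8 and CCT4 stood at 0.11, 0.09, 0.07 and 0.06 without passing. CCT2 stood at -0.06 and did not pass. Both calls depended on having the duplicate MS1943 libraries: CCT6A gave -0.20 and -0.24 (adjusted p = 0.161 and 0.0770) and CCT7 gave -0.22 and -0.17 (adjusted p = 0.155 and 0.311) without MS1943 replicate 1 and without MS1943 replicate 2. Leaving out either DMSO library kept both calls, and TCP1 then passed at 0.14 in each case (adjusted p = 0.0263 without DMSO replicate 1 and 0.0254 without DMSO replicate 2), beside 21.2% of all tested genes called higher relative to the same subunits with all libraries. These fits were added after the values had been seen.

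Levels between subunits were compared in TPM, Salmon's length-adjusted transcript abundance. CCT6A had 1059 and 1073 TPM in the MS1943 libraries and 1223 and 1158 TPM in the DMSO libraries, so that on this scale both MS1943 values were below both DMSO values. CCT5 had 1083 and 1000 TPM under MS1943 and 956 and 914 TPM under DMSO. Summed over all annotated transcripts, these genes held the highest levels in both groups, and under MS1943 their values overlapped. TCP1 came next, with 658 and 663 TPM under MS1943 and 561 and 567 TPM under DMSO. CCT7 had 374 and 363 TPM under MS1943 and 419 and 407 TPM under DMSO, and CCT3 had 396 and 392 TPM under MS1943 and 379 and 357 TPM under DMSO. Summed over all annotated transcripts, CCT7 therefore stood above CCT3 in both DMSO libraries and below it in both MS1943 libraries. This change of order was not seen with protein-coding transcripts only, as given below. CCT8 had 358 and 368 TPM under MS1943, overlapping CCT7, and 353 and 327 TPM under DMSO. CCT4 had 246 and 244 TPM under MS1943 and 247 and 224 TPM under DMSO. CCT2 was lowest, with 206 and 213 TPM under MS1943 and 218 and 209 TPM under DMSO. Among 19692 protein-coding genes ranked by TPM in the DMSO group, the subunits ran from rank 108 (CCT6A) to rank 731 (CCT2).

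The summed TPM of the 8 was 4381 and 4316 in the MS1943 libraries and 4356 and 4164 in the DMSO libraries, which overlap. Within this sum the share of CCT6A was 24.5% ± 0.48 (SD, n = 2) under MS1943 and 27.9% ± 0.19 under DMSO, a difference of -3.42 percentage points. The share of CCT7 was 8.47% ± 0.10 under MS1943 and 9.69% ± 0.12 under DMSO. TCP1 held 15.2% ± 0.24 under MS1943 and 13.3% ± 0.52 under DMSO, and CCT5 held 23.9% ± 1.10 under MS1943 and 21.9% ± 0.01 under DMSO. The other 4 shares differed by less than 0.5 points: CCT3 by 0.42, CCT8 by 0.37, CCT4 by 0.10 and CCT2 by -0.19 points. The shares of the libraries did not overlap between the groups for any subunit but CCT4. By CPM, 78.3% of all tested genes did not overlap, and the shares, as parts of the same sum, do not move independently. With protein-coding transcripts only, the shares of CCT4 did not overlap and those of CCT2 did. The TPM ratio of TCP1 to CCT7 was 1.76 and 1.83 under MS1943 and 1.34 and 1.39 under DMSO. The TPM ratio of TCP1 to CCT6A was 0.621 and 0.618 under MS1943 and 0.459 and 0.490 under DMSO. Groups of 2 libraries cannot reach an exact permutation p below 0.333, so no test was made on these shares and ratios.

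**Figure D3:**
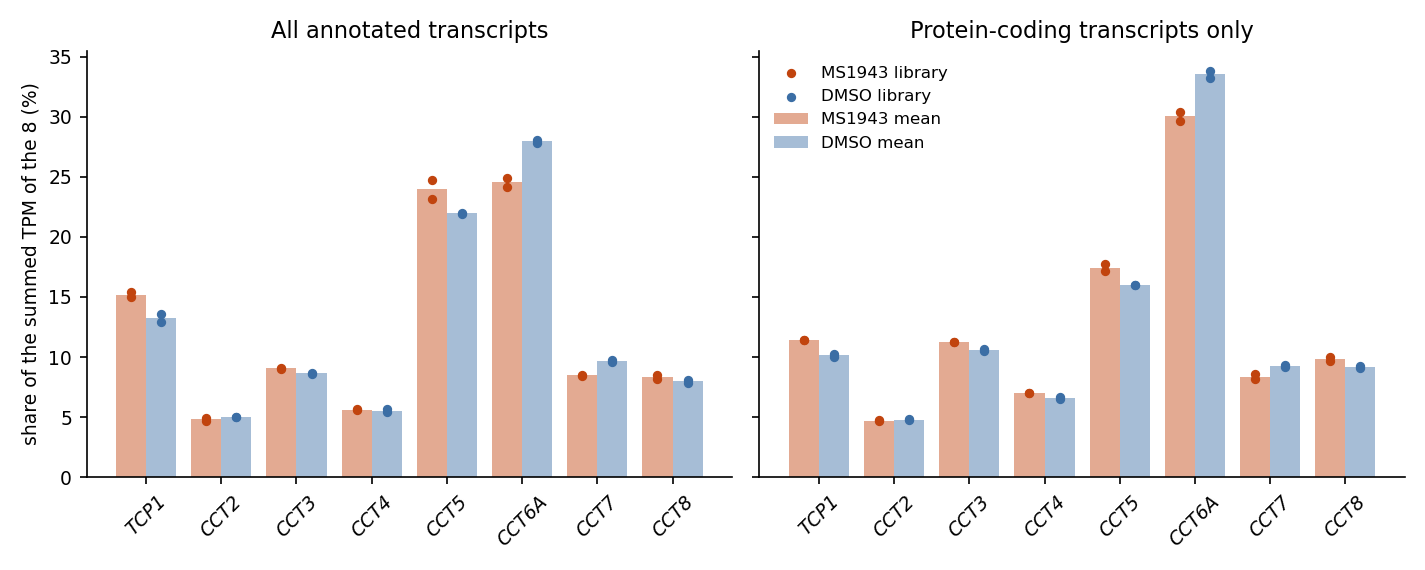
Share of each subunit in the summed TPM of the 8, as a percent, from all annotated transcripts (left panel) and from protein-coding transcripts only (right panel), with MS1943 bars left of DMSO bars, bars at group means and dots at libraries. CCT6A takes 24.5% under MS1943 and 27.9% under DMSO in the left panel, and 30.0% under MS1943 and 33.5% under DMSO in the right panel.

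A gene's TPM is the sum of its annotated transcripts, and short non-coding transcripts held much of it for some subunits. TCP1-214, a processed transcript of 561 bases, held 39.6% ± 0.33 of the TPM of TCP1 under MS1943 and 36.1% ± 5.81 under DMSO. CCT5-206, a retained-intron transcript of 555 bases, held 34.6% ± 2.02 of the TPM of CCT5 under MS1943 and 32.1% ± 1.65 under DMSO. Retained-intron transcripts also held a large part of CCT7 and CCT2: a CCT7 transcript of 527 bases held 22.8% under MS1943 and 21.1% under DMSO, and a CCT2 transcript of 776 bases held 19.4% under MS1943 and 20.2% under DMSO. In contrast, protein-coding transcripts made up over 90% of the TPM of CCT3, CCT4, CCT6A and CCT8 in both groups, and CCT6A-201 alone held 92.5% of CCT6A under MS1943 and 93.8% under DMSO. With protein-coding transcripts only, the share of TCP1 in the sum of the 8 was 11.4% under MS1943 and 10.2% under DMSO, and that of CCT5 was 17.4% under MS1943 and 16.0% under DMSO. The difference was then -3.49 points for CCT6A and -0.87 points for CCT7, so the direction of these shifts did not rest on the non-coding transcripts. The order of the subunits did rest on them in part. With protein-coding transcripts only, CCT7 (9.30% and 9.18%) and TCP1 (10.3% and 10.0%) stood below CCT3 (10.5% and 10.7%) in both DMSO libraries. CCT5 (17.7% and 17.1%) and CCT6A (29.7% and 30.4%) then did not overlap under MS1943.

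Of 105 annotated transcripts of the 8 genes, 71 were tested in a fit over 74941 transcripts, of which 6.23% were higher and 6.21% lower. Among the 71, 2 were higher and 1 was lower at an adjusted p under 0.05, while 16 had an unadjusted p under 0.05. TCP1-202, a protein-coding transcript, had 167 and 168 TPM under MS1943 and 134 and 131 TPM under DMSO. It rose with a log2 fold change of 0.39 ± 0.06 (edgeR adjusted p = 0.0267), while TCP1-201, the longer protein-coding transcript of 2499 bases, had 160 and 162 TPM under MS1943 and 177 and 155 TPM under DMSO and did not pass (log2 fold change 0.01, adjusted p = 0.958). CCT3-206, annotated as a target of nonsense-mediated decay, had 11.7 and 9.76 TPM under MS1943 and 3.18 and 3.12 TPM under DMSO. It rose with a log2 fold change of 1.83 ± 0.15 (edgeR adjusted p = 0.00831) and held 2.73% of the TPM of CCT3 under MS1943 and 0.855% under DMSO. CCT7-204, also annotated to nonsense-mediated decay, had 2.60 and 3.82 TPM under MS1943 and 10.1 and 11.2 TPM under DMSO. It fell with a log2 fold change of -1.66 ± 0.30 (edgeR adjusted p = 0.0380), to 0.875% of the TPM of CCT7, against 2.58% in DMSO. Leaving out any library left 1 transcript higher and 0 lower. The error of sharing reads between overlapping transcripts is not part of these values.

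**Figure D4:**
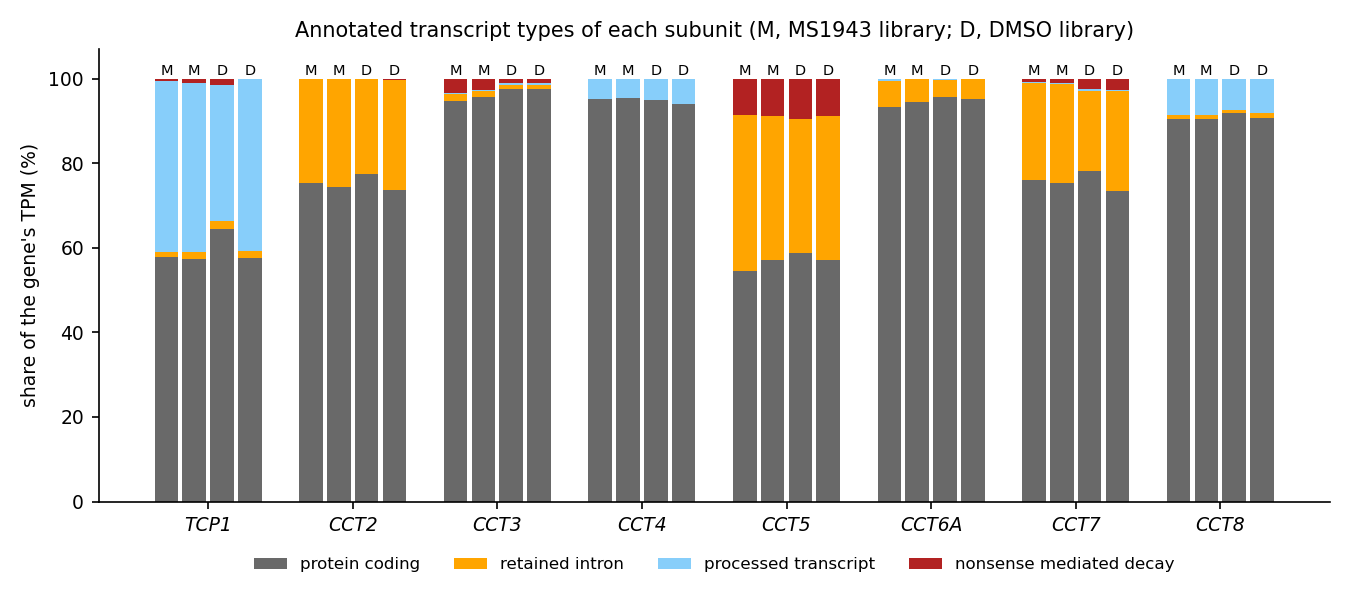
Percent of each subunit gene's TPM by annotated transcript type, as stacked bars with the 2 MS1943 libraries left of the 2 DMSO libraries. Protein-coding transcripts hold over 90% of CCT3, CCT4, CCT6A and CCT8 and between 54.5% and 78.2% of TCP1, CCT2, CCT5 and CCT7.

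The subunits have pseudogenes and paralogs that can share reads with them. The 4 annotated pseudogenes of CCT6A held 1.09% and 1.05% of the reads of the parent and its pseudogenes under MS1943, and 0.595% and 0.642% under DMSO. Of these, CCT6P1 rose with a log2 fold change of 1.03 ± 0.12 (edgeR adjusted p = 7.94e-07) and CCT6P3 with 0.65 ± 0.08 (edgeR adjusted p = 1.56e-06), with at most 15.2 CPM in any library. Adding the pseudogene reads to the parents left each subunit's call as it was. Pseudogenes of CCT8 held 0.0940% and 0.101% under MS1943 and 0.173% and 0.174% under DMSO, and those of the other subunits held 3 reads or fewer in each library. CCT6B, the paralog of CCT6A known from testis, had 0.963 and 0.765 CPM under MS1943 and 1.22 and 1.44 CPM under DMSO and was called lower (log2 fold change -0.61 ± 0.23, edgeR adjusted p = 0.0325), a call lost with DESeq2 and without MS1943 replicate 2 or DMSO replicate 2. CCT8L2 and CCT8L1P had at most 1 read in any library.

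Several subunits start back to back with a gene on the other strand, and the library kit does not mark strand, so reads from an overlap cannot be told apart. The 5′ ends of CCT5 and ATPSCKMT, a methyltransferase gene of the mitochondrial ATP synthase, lie 24 bases apart, and ATPSCKMT had 17.0 and 17.9 CPM under MS1943 and 30.0 and 27.6 CPM under DMSO. ATPSCKMT fell, with a log2 fold change of -0.73 ± 0.07 (edgeR adjusted p = 3.54e-08), while CCT5 rose. PRADC1, which starts 182 bases from CCT7, had 8.55 and 9.40 CPM under MS1943 and 21.5 and 19.6 CPM under DMSO and fell, at a log2 fold change of -1.20 ± 0.08 (edgeR adjusted p = 2.99e-10), while CCT7 did not pass. PSPH, which encodes the last enzyme of serine synthesis, starts 26 bases from CCT6A and stood at a log2 fold change of 0.11 ± 0.06 (edgeR adjusted p = 0.102). It was called higher without DMSO replicate 1, at 0.16 (adjusted p = 0.0119), and was 0.0023 with total-read scaling. MRPL18, a mitochondrial ribosomal protein gene whose start lies 63 bases from that of TCP1, stood at -0.02 ± 0.06 (edgeR adjusted p = 0.814), and was called lower with total-read scaling, at -0.13 (adjusted p = 0.0355). ACAT2 and COMMD1, which overlap TCP1 and CCT4, stood at 0.01 and -0.01 without passing. The other tested overlapping genes were TSACC (with CCT3), SNORA22B (with CCT6A), ENSG00000271980 (with CCT5) and ENSG00000231125 (with CCT8), which had at most 30 reads in any library, and 0 of these 4 passed.

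CCT6A lies at chr7:56051630-56063989 (hg38), with 840002 bases between it and EGFR, the epidermal growth factor receptor gene that is known to be amplified in this line. EGFR averaged 1048 TPM under MS1943 and 753 TPM under DMSO and rose with a log2 fold change of 0.58 ± 0.07 (edgeR adjusted p = 7.67e-07). Genes nearer to CCT6A moved in both directions. SUMF2, 13 bases away, fell at a log2 fold change of -0.66 ± 0.06 (edgeR adjusted p = 2.4e-08). SEPTIN14, 188841 bases away, had a low level, with a mean of 1.28 TPM under MS1943 and 0.923 TPM under DMSO. It rose at 0.65 ± 0.15 (edgeR adjusted p = 0.00111). LANCL2, 617888 bases away, rose at 0.19 ± 0.06 (edgeR adjusted p = 0.00725). Of the 13 other protein-coding genes within 1 Mb of CCT6A, all tested and EGFR among them, 3 were higher, 7 were lower and 3 did not pass. Besides SUMF2, those lower were NUPR2 (-1.13), ZNF713 (-0.92), ENSG00000249773 (-0.87), NIPSNAP2 (-0.62), MRPS17 (-0.59) and VOPP1 (-0.16). CHCHD2, PHKG1 and PSPH did not pass. Over all tested genes, 30.0% were higher and 29.4% lower. Copy number was not measured. The other subunits lie at chr6:159778498-159789749 (TCP1), chr12:69585334-69601570 (CCT2), chr1:156308968-156367873 (CCT3), chr2:61868089-61888804 (CCT4), chr5:10249921-10266412 (CCT5), chr2:73233420-73253021 (CCT7) and chr21:29055805-29073797 (CCT8).

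Some of the factors that deliver clients to TRiC had larger log2 fold changes than any subunit of the ring. Of the 6 prefoldin subunits, 4 rose and 2 did not pass, with a median log2 fold change of 0.34. This count and those of the lists below stand beside 30.0% of all tested genes higher and 29.4% lower. PFDN2 had 90.7 and 101 CPM under MS1943 and 46.8 and 48.0 CPM under DMSO, a log2 fold change of 1.01 ± 0.06 (edgeR adjusted p = 3.12e-11). PFDN4 had 24.2 and 23.1 CPM under MS1943 and 12.4 and 11.1 CPM under DMSO, also a log2 fold change of 1.01 ± 0.08 (edgeR adjusted p = 1.04e-09). PFDN2 and PFDN4 are both beta-type prefoldin subunits, and PFDN6, another of these, rose by a log2 fold change of 0.52, while PFDN1 stood at 0.08 and did not pass (edgeR adjusted p = 0.235). Of the alpha-type subunits, VBP1 rose at 0.17 (edgeR adjusted p = 0.0183), a call lost with total-read scaling (0.06), and PFDN5 stood at 0.11 (edgeR adjusted p = 0.0959). In the prefoldin-like complex, PDRG1 (0.35) and URI1 (0.26) rose, and UXT (0.10) did not pass. Among the phosducin-like cofactors TXNDC9 rose at 0.69 ± 0.06 (edgeR adjusted p = 1.99e-08), PDCL3 fell at -0.32 ± 0.07 (edgeR adjusted p = 0.000901), PDCL stood at 0.14 and did not pass, and PDCL2 had 0 reads.

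The transcripts of TRiC clients moved in both directions. The list of 16 actins and tubulins had 8 that rose and 6 that fell, with 2 not passing and a median log2 fold change of 0.22. The genes that rose most had low levels in DMSO: TUBA4A had 57.3 and 55.5 CPM under MS1943 and 9.23 and 8.57 CPM under DMSO, a log2 fold change of 2.67 ± 0.07 (edgeR adjusted p = 2.1e-16). TUBB2B, TUBB2A and TUBB4A rose by log2 fold changes of 2.89, 1.98 and 1.97. The most abundant of the list, chosen after its values were seen, was ACTB, cytoplasmic beta-actin, with 4914 and 4999 CPM under MS1943 and 6742 and 6530 CPM under DMSO, and it fell, at a log2 fold change of -0.42 ± 0.07 (edgeR adjusted p = 2.48e-05). The summed TPM of the 16 genes was 11573 and 11512 under MS1943 and 16161 and 16203 under DMSO, lower in both MS1943 libraries, while the summed TPM of the 8 TRiC subunits overlapped between the groups. Of 14 other reported clients, 1 rose, 9 fell and 4 did not pass, with a median log2 fold change of -0.23. PLK1, the mitotic kinase, had 69.7 and 69.4 CPM under MS1943 and 139.8 and 136 CPM under DMSO, and fell, at a log2 fold change of -0.99 ± 0.05. CDC20 (-0.94), an activator of the anaphase-promoting complex, and WRAP53 (-0.79), a telomerase cofactor, also fell, and the 1 that rose was RPTOR (0.52), the mTORC1 scaffold. Of the 5 cofactors that assemble tubulin dimers after TRiC, TBCA (0.60), TBCE (0.60) and TBCB (0.25) rose, and TBCD (-0.39) and TBCC (-0.28) fell.

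**Figure D5:**
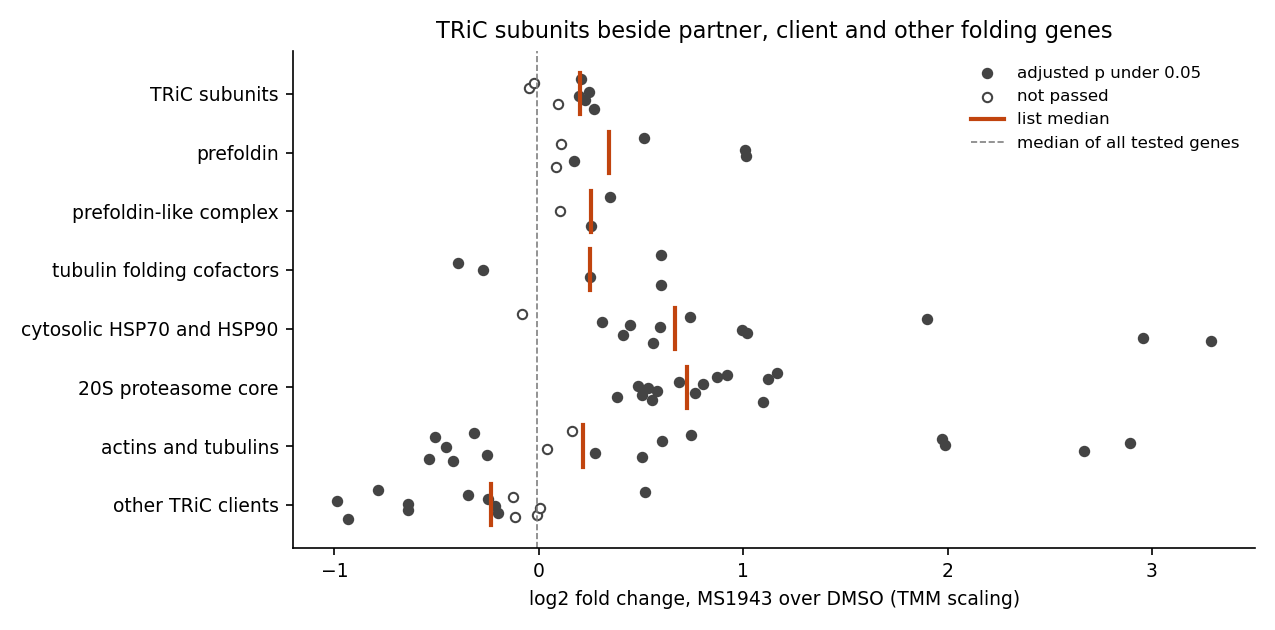
Log2 fold change, MS1943 over DMSO, of each gene of 8 lists of folding and degradation genes; filled points passed the test at an adjusted p under 0.05, open points did not, orange bars are list medians and the dashed line is the median of all tested genes. The TRiC subunits lie in a narrow band from -0.05 to 0.27, while the cytosolic HSP70 and HSP90 list reaches 3.29 and the 20S proteasome core runs from 0.38 to 1.16.

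The small change of TRiC stood beside large changes of other chaperones. Of 12 genes of the cytosolic HSP70 and HSP90 system, 11 rose and 1, PTGES3, did not pass (log2 fold change -0.08; called lower with total-read scaling), with a median log2 fold change of 0.67. HSPA1A, the stress-inducible HSP70, had 5874 and 5778 CPM under MS1943 and 607 and 585 CPM under DMSO, a log2 fold change of 3.29 ± 0.07 (edgeR adjusted p = 1.98e-17). HSPA1B, a near-identical copy with which it can exchange reads, rose by a log2 fold change of 2.95, DNAJB1, an HSP40 cochaperone, by 1.90 and HSPH1, an HSP70 exchange factor, by 1.02. The summed TPM of the 12 was 12309 and 12083 under MS1943 and 5195 and 5134 under DMSO. Of 3 heat shock factor genes, HSF1 (0.41) and HSF2 (0.58) rose and HSF4 (0.16) did not pass. The mitochondrial chaperonin HSPD1 rose at 0.17 ± 0.06 (edgeR adjusted p = 0.0203), a call lost with total-read scaling (0.06), and its partner HSPE1 stood at 0.06 and did not pass. In the catalytic core of the proteasome, another ring complex, 14 of 14 listed genes were higher (PSMA1 to PSMA7 and PSMB1 to PSMB7). Their log2 fold changes ran from 0.38 (PSMA3) to 1.16 (PSMB7), with a median of 0.72. The chaperonin-like genes of the BBS complex were split, with MKKS (0.28) higher, BBS12 (-0.56) lower and BBS10 (-0.21) not passing.

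Among 8888 other genes whose average log2 CPM was 4 or more, the genes whose profile over the 4 libraries lay closest to the mean profile of the 8 subunits included ETF1, EPB41, HIKESHI and UQCRC2, at Euclidean distances of 0.006 to 0.012 on centred log2 CPM. The subunits themselves lay 0.060 (CCT2) to 0.194 (CCT6A) from their own mean. The named genes were picked as the closest of the 8888, so their smaller distances follow from the choice. How many of the 8888 lay as near as a subunit was not counted. ETF1, the translation release factor, had 320.2 and 319 CPM under MS1943 and 304 and 272 CPM under DMSO, the same order of libraries as the mean of the 8. That mean, as a geometric mean, was 566 and 563 CPM under MS1943 and 538 and 483 CPM under DMSO. The likeness rests on 4 libraries and is a description.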

How the data were processed

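RNA was sequenced from 2 MS1943 and 2 DMSO libraries of MDA-MB-468 cells, made with an Illumina TruSeq RNA v2 kit per the labels' protocols. Salmon 0.9.1, R 3.4.3, DESeq2 and build hg38 were used by the authors, per the submitters' processing notes. Not given in the sources used here: annotation release, Salmon settings. The deposited files hold an estimated count per transcript (reads, not necessarily whole), TPM, which is scaled for length and depth, and an effective length (a score in bases), per the file headers.

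Of 197653 transcripts per file, 193505 matched GENCODE 29 by identifier. The other 4148 held 0.482% to 0.496% of the reads. Estimated counts were summed by gene and rounded to whole numbers. Genes passing filterByExpr were tested with edgeR 4.0.16 (quasi-likelihood F test, TMM, R 4.3.3, Benjamini-Hochberg over all 19358). No batch is labelled. The common biological coefficient of variation was 0.0478. Each subunit had at least 10986 reads in every library, and 3 reads were 0.0420 to 0.0631 CPM. Such floors cover counting error only. The pipeline was tested on simulated data. It recovered 35 of 67 genes changed by 1.5-fold, 46 of 67 changed by 2-fold and 60 of 66 changed by 4-fold. A simulated run without any change gave 9 false calls among 19358 genes. Changes as small as those of the subunits, all under 1.5-fold, were not simulated.

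Members and lists were chosen with earlier results of these data known. Named genes were all members, per list up to 4 passing genes of smallest adjusted p, tested neighbours (overlapping, or starting within 1000 bases on the other strand), the 5 most alike genes, and transcripts with at least 5% of a gene's TPM. Some genes the rule names are not reported here. Genes outside this rule complete counts or are said to be chosen later. Alternatives were other scalings (median-of-ratios, upper quartile, total reads), no filter, protein-coding genes or transcripts only, length offsets, pseudogene reads added, DESeq2 1.42.0, limma 3.58.1 on log2(TPM + 1), and leaving out each library. The fits relative to the other 7 subunits and the set of equally abundant genes were added after seeing the data.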

Additional observations from a re-analysis of the deposited data

How the results depend on the processing

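With 2 libraries per group, 1 library can decide a call on a change of this size, and the part of read depth in this was not tested. Subunits called higher numbered 5 with TMM, 3 with total reads, 1 with limma and 3 to 6 when a library was left out. Subunits called lower numbered 0 with TMM, 2 with total reads, 2 with limma and 0 to 0 when a library was left out. Total reads gave log2 fold changes of -0.019 (CCT2, sign turned), 0.084 (CCT4, call lost), 0.095 (CCT8, call lost), -0.16 (CCT6A, called) and -0.14 (CCT7, called). Limma gave -0.026 (CCT2, sign turned), 0.097 (CCT3), 0.057 (CCT4), 0.15 (CCT5) and 0.095 (CCT8), with those 4 calls lost, and -0.16 for both CCT6A and CCT7, called. CCT4 was also lost with upper-quartile scaling (0.13), length offsets (0.16) and without MS1943 replicate 1 (0.18). Without 1 library each, values ran from 0.010 to 0.17 for CCT2, 0.091 to 0.30 for CCT4, -0.12 to 0.020 for CCT6A, -0.10 to 0.050 for CCT7 and 0.12 to 0.29 for CCT8, and relative to the other 7 from -0.24 to -0.20 for CCT6A, -0.22 to -0.17 for CCT7 and 0.14 to 0.15 for TCP1; with only 1 library in a group, that library is assumed to vary like the other group. Transcripts called higher were 1 to 1 and lower 0 to 0 without a library. With protein-coding transcripts only, differences in share were 1.25 (TCP1), -0.061 (CCT2), 0.65 (CCT3), 0.42 (CCT4), -0.87 (CCT7) and 0.67 (CCT8) points. Of genes that are not subunits, ACAT2 turned to -0.10, -0.061 and -0.028 with total reads, upper quartile and no filter, and leaving out a library gave -0.068 to 0.077 for it, -0.089 to 0.046 for MRPL18, -0.077 to 0.044 for COMMD1 and -1.54 to 0.40 for ENSG00000271980. Causes of these shifts were not tested. All-gene counts, 5799 higher and 5689 lower with TMM, ran from 3491 (limma) to 5915 higher and from 4503 to 6973 lower. Values that answer a comparison were counted once for each alternative setting. Of these, 219 kept their direction and side of the threshold, 15 lost a call, 7 gained a call, 4 turned sign and 19 moved otherwise. No paired analysis was possible because the labels give no replicate numbers.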
